A study of Mus musculus with 8 samples.

Results

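The genes described here encode proteins of the lipid droplet surface and of droplet formation: the CIDE (cell death-inducing DFFA-like effector) proteins Cidea and Cidec, the perilipins Plin1, Plin2, Plin3, Plin4 and Plin5, and Bscl2, Fitm2 and Hilpda. They were taken by name, after Ensembl identifiers were mapped to mouse symbols, and all 10 were found among the 31053 genes of the count table. They were measured by bulk RNA sequencing of brown adipose tissue (BAT), the thermogenic fat of rodents, in 4 wild-type (WT) and 4 db/db libraries, each from male mice aged 8 weeks, with tissue taken after fasting. Db/db mice are homozygous in every tissue for a mutation of the leptin receptor gene Lepr that removes its long signalling form, eat in excess and become obese and diabetic, and they served as a genetic model of obesity with type 2 diabetes. The labels give the strain C57BL6/J for both genotypes, whereas the study's methods name the db/db line as B6.BKS(D)-Leprdb/J. The methods also differ among themselves on whether the WT mice came from the same supplier. A difference of supplier or of background strain cannot be told apart from genotype if there was one. Lepr itself gave 0 counts in each of the 8 libraries, which leaves the genotype unchecked at the level of RNA.

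Lipid droplets are stores of neutral lipid inside a phospholipid monolayer, and the proteins on that monolayer set how the store grows and how lipases reach it. Plin1 and Plin4 coat droplets mainly in adipocytes, Plin2 and Plin3 coat droplets in nearly all cells, and Plin5 is found in oxidative tissues, where it also tethers droplets to mitochondria. Cidea and Cidec sit where droplets touch and move lipid from the smaller to the larger one. Cidea is typical of the brown adipocyte with its many small droplets, and Cidec of the white adipocyte with its single large one.

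The 4 WT libraries held 2374079 to 2615009 counts each and the 4 db/db libraries 2382722 to 3240074. Levels are given as CPM, the count of a gene per 1000000 counts of the genes in its library that passed a filter on low counts. They were scaled between libraries by TMM. The limit that a count of 0 allows, 3 counts, was 0.926 to 1.26 CPM, taken from full library totals without TMM. Each of the 10 genes had between 161 and 11427 counts in every library, and all 10 passed the filter on low counts. The labels give the cell type as stromal vascular fraction although the tissue is BAT. The summed level of 12 genes shared by all adipocytes was 19310 to 26530 CPM in WT and 23260 to 27930 CPM in db/db, so adipocyte RNA was abundant in every library. Of these 12 genes, 4 were higher in db/db, 3 were lower and 5 were not called. The highest of them, Fabp4, averaged 7789 CPM in WT and 12193 CPM in db/db. Where they are used below as an alternative scaling, they are therefore not a fixed reference. The study describes 4 mice per genotype for this experiment, as many as there are libraries. In bulk tissue, fewer cells of a type and less RNA per cell cannot be told apart.

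Of the perilipin genes, Plin4, Plin5 and Plin3 lie on chromosome 17 and are transcribed from the minus strand. Plin4 (chr17:56100591-56109803, mm10) and Plin5 (chr17:56111601-56117596) are next to each other with 1797 bases and no annotated gene between them, and Plin3 (chr17:56277476-56292873) lies 159879 bases beyond Plin5 with 11 genes between. The other members with coordinates given here are Plin1 (chr7:79720218-79732903), Plin2 (chr4:86648386-86670060), Cidec (chr6:113424634-113435760), Hilpda (chr6:29272488-29275446), Fitm2 (chr2:163466379-163472629) and Bscl2 (chr19:8837467-8848683). The sequences upstream of Plin5, Plin1, Plin4 and Cidec are shown because the balance between these genes is what the genotypes are compared on below, and because the neighbours Plin4 and Plin5 moved in opposite directions. They are from RefSeq promoter windows of GRCm38.p6, 5′ to 3′ on the gene's strand, and stop where the annotated gene begins. Capitals mark AGGTCA, the half-site of nuclear receptors such as the PPARs, the C/EBP-type motif TTGCNNAA, and CCAAT, each on either strand.
Plin5, chr17:56117597-56117798, minus strand: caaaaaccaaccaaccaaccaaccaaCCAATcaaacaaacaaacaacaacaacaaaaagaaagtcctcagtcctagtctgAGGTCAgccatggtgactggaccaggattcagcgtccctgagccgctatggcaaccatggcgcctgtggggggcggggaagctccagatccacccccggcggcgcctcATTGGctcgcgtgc
Plin1, chr7:79732904-79733026, minus strand: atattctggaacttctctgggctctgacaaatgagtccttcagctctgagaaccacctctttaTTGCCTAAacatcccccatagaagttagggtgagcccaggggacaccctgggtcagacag
Plin4, chr17:56109804-56110032, minus strand: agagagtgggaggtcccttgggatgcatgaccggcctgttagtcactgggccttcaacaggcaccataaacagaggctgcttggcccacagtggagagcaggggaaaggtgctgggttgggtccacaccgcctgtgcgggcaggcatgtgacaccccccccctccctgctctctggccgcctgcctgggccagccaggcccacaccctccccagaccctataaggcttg
Cidec, chr6:113435761-113436010, minus strand: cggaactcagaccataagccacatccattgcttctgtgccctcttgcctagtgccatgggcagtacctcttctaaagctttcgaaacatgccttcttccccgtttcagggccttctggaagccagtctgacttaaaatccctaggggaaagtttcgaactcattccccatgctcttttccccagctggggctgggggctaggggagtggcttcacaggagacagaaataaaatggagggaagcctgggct

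In the 250 bases before each start, RefSeq windows were held for 9 of the 10 genes, with 14 windows in all, and no window was held for Cidea. AGGTCA was found in windows of Plin5, Plin2 and Bscl2 and in 14% of all 32851 windows. In Plin5 it began 170 bases before the start. The direct repeat of this half-site spaced by 1 base was in no window of these genes and in 0.0335% of all windows. TTGCNNAA was found in Plin1, 187 bases before the start, which is the match marked above, and 58 bases before it, outside the stretch shown, and in 1 window of Cidec that is not the one shown, against 9.56% of all windows. CCAAT was found in windows of Plin2, Plin3, Plin4, Plin5 and Bscl2 and in 33.8% of all windows, and the match in Plin4, 18 bases before the RefSeq start, lies outside the stretch shown. The hypoxia response core ACGTG was in the window of Hilpda and in 16.6% of all windows, and TATAAA was in none of these genes and in 12.4% of all windows. A match describes letters only.

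Of these genes, 4 differed between the genotypes, 2 in either direction. Plin1 and Plin4, the adipocyte coat proteins, were higher in db/db BAT, while Cidea and Plin5, the members typical of brown and oxidative tissue, were lower. With a skeletal muscle score as a covariate the calls of Plin1 (log2 fold change 0.64 in place of 0.79, edgeR adjusted p 0.0915) and Plin4 (0.81 in place of 1.07, edgeR adjusted p 0.0612) were lost, while Cidea (−0.90 in place of −1.24) and Plin5 (−0.87 in place of −0.83) passed. Across all 9264 genes tested with edgeR's quasi-likelihood test and Benjamini-Hochberg adjustment, 27.7% passed an adjusted p of 0.05, with 15.8% higher and 11.9% lower in db/db. Among the 10 members 4 passed, 2 in each direction, and these 4 were also the only members whose CPM did not overlap between the genotypes, against 28.1% of all genes. A count of 4 among 10 is near that background and says nothing of the members as a group. Their median log2 fold change was −0.18 beside 0.0066 for all genes tested, and their median absolute log2 fold change was 0.34 beside 0.38.

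**Figure D1:**
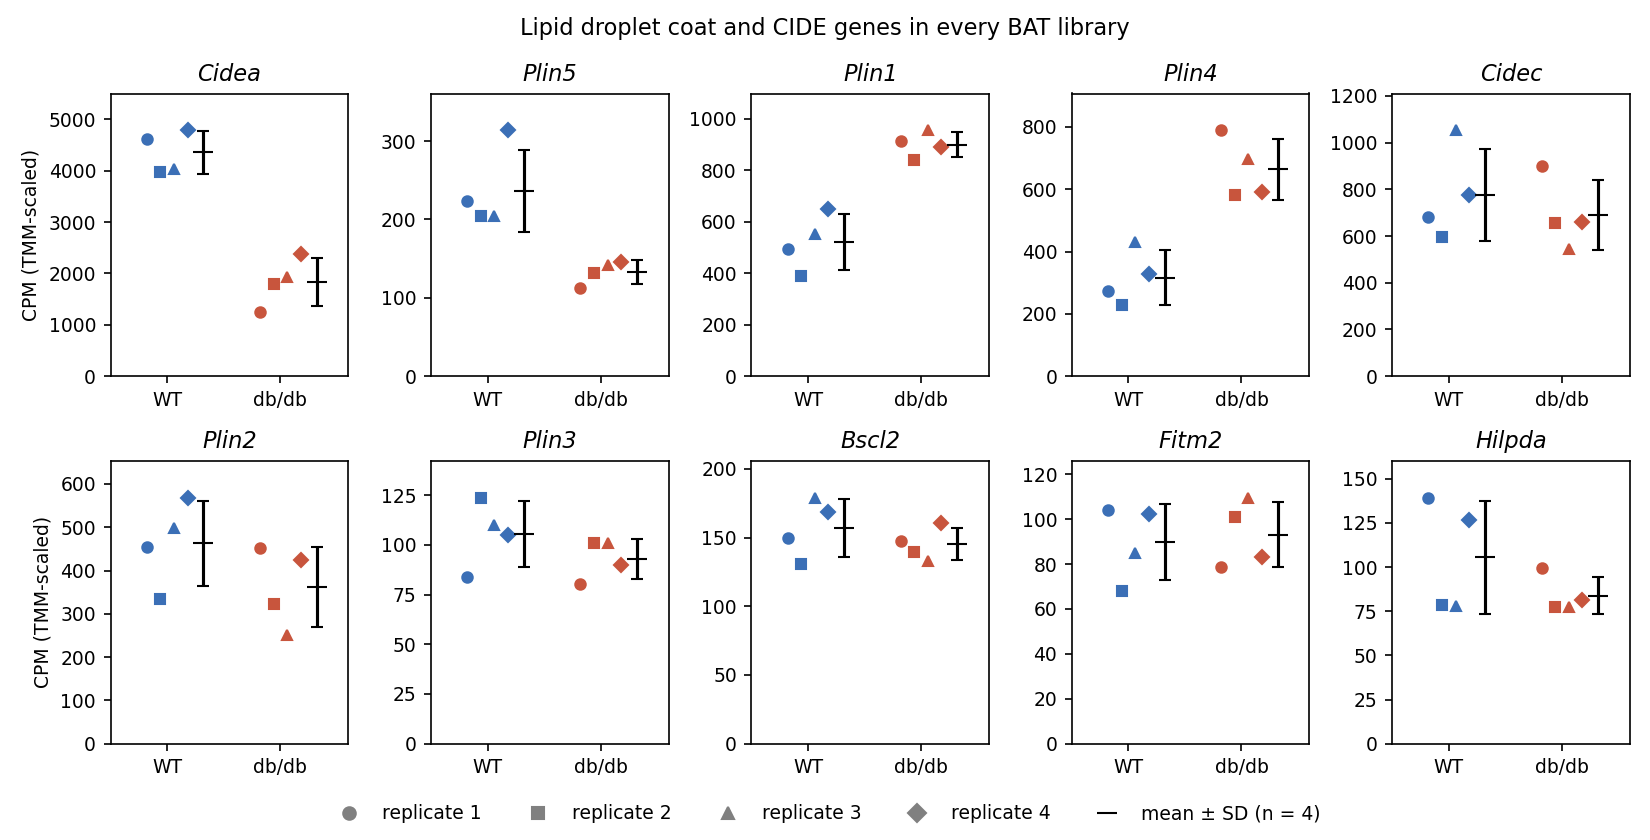
Normalized level (CPM, TMM-scaled, linear axis from 0) of each of the 10 genes in the 4 WT (blue) and 4 db/db (red) libraries, with the marker shape giving the replicate number and the black bar the mean ± SD. Cidea and Plin5 were lower and Plin1 and Plin4 higher in all 4 db/db libraries than in any WT library, and the remaining 6 genes overlapped.

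Cidea, which promotes lipid transfer between droplets and is a marker of brown fat, showed the largest difference of the 10. Its level was 4624, 3975, 4038 and 4787 CPM in WT replicates 1 to 4 and 1255, 1789, 1931 and 2380 CPM in db/db replicates 1 to 4. Every db/db library lay below every WT library, and replicate 1 was the lowest of them. The mean was 4356 ± 410 CPM in WT and 1839 ± 464 CPM in db/db (SD, n = 4), a level 2.37-fold lower in the mutant (edgeR log2 fold change −1.24 with an SE of 0.17, adjusted p 4.19e-05). A non-coding gene on the opposite strand, B430212C06Rik, lies across Cidea but shares 0 exon bases with it. The strand setting of the counting was not given in the sources used here.

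Cidec, the CIDE protein of unilocular white adipocytes, did not pass the test. Its level was 681, 597, 1053 and 776 CPM in WT and 899, 654, 547 and 658 CPM in db/db. The ranges overlapped, with WT replicate 3 the highest library and db/db replicate 3 the lowest. The log2 fold change was −0.17 (SE 0.18, edgeR adjusted p 0.522), and the 95% interval of the ratio of db/db to WT, 0.683 to 1.16, left room for a level either lower or higher. Cideb, the hepatic and intestinal CIDE gene, was close to the detection limit at 5.46 CPM in WT and 3.91 CPM in db/db (edgeR adjusted p 0.497) and was named after its values were seen.

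The balance of Cidea to Cidec was read within each library as a ratio of counts, which needs no scaling between libraries. The counts are not corrected for gene length, so the ratio compares genotypes and not the abundance of the proteins. It was 6.78, 6.66, 3.84 and 6.17 in WT and 1.40, 2.74, 3.53 and 3.61 in db/db. The groups did not overlap, although WT replicate 3, the library with the most Cidec, came close to db/db replicates 3 and 4. The geometric mean was 5.72 in WT and 2.64 in db/db, a difference of −1.11 on the log2 scale (exact two-sided permutation p = 0.0286, adjusted over 4 ratios 0.0381, n = 4 per genotype), and 0.0286 is the smallest p that 4 against 4 libraries allow. Db/db replicate 1 had the lowest ratio, and without it the difference was −0.81. Cidea made up 84.9% ± 3.73 of the summed counts of both genes in WT and 71.9% ± 9.41 in db/db.

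Plin1, the adipocyte perilipin that holds back lipolysis until protein kinase A phosphorylates it, had 495, 388, 551 and 649 CPM in WT and 912, 838, 954 and 888 CPM in db/db. All db/db libraries lay above all WT libraries and close together, with an SD of 48.5 CPM against 109 CPM in WT. The mean rose from 521 CPM to 898 CPM, a 1.73-fold higher level with a 95% interval of 1.39 to 2.15 (log2 fold change 0.79, SE 0.15, edgeR adjusted p 0.000685). Under the muscle covariate it was 0.64 with an SE of 0.23 and did not pass (edgeR adjusted p 0.0915).

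Plin4, a perilipin with a long run of amphipathic repeats that covers nascent droplets in adipocytes, had 274, 230, 432 and 329 CPM in WT and 789, 583, 696 and 590 CPM in db/db. The lowest db/db library stood above the highest WT library, and db/db replicate 1 was the highest of all 8. The mean rose from 316 ± 87.3 CPM to 664 ± 97.8 CPM (SD, n = 4), which was 2.10-fold with a 95% interval of 1.63 to 2.71 (log2 fold change 1.07, SE 0.18, edgeR adjusted p 0.000195). Under the muscle covariate it was 0.81 with an SE of 0.26 and did not pass (edgeR adjusted p 0.0612). Plin4 shares 17 exon bases with Hdgfl2 on the opposite strand, 0.294% of its exon length.

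Plin5, the perilipin of oxidative tissue that binds the lipase Pnpla2 and its coactivator Abhd5, went the other way from its neighbour on the chromosome. It had 223, 205, 204 and 314 CPM in WT and 112, 131, 142 and 145 CPM in db/db. All db/db libraries were below all WT libraries, and WT replicate 4 stood well above the other 3 WT libraries. The mean fell from 236 ± 52.3 CPM to 133 ± 15.1 CPM, a 1.78-fold lower level (log2 fold change −0.83, SE 0.16, edgeR adjusted p 0.000593). Without WT replicate 4 the log2 fold change was −0.68 and still passed.

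Plin2, the general droplet coat protein whose level follows the amount of stored lipid in most cells, had 454, 334, 498 and 568 CPM in WT and 453, 323, 252 and 423 CPM in db/db. The ranges overlapped, and db/db replicate 1 was level with WT replicate 1. Its log2 fold change of −0.35 (SE 0.19, edgeR adjusted p 0.172) did not pass, with a 95% interval of the ratio of 0.597 to 1.03. When every gene with at least 1 count was tested, it did pass (log2 fold change −0.40, edgeR adjusted p 0.0434).

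Plin3, which moves from the cytosol onto small new droplets, had 83.8, 124, 110 and 105 CPM in WT and 80.3, 101, 101 and 89.7 CPM in db/db. The genotypes overlapped, and replicate 1 was the lowest library in both. Its log2 fold change was −0.18 (SE 0.15, edgeR adjusted p 0.378), with a 95% interval of the ratio of 0.711 to 1.09.

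**Figure D2:**
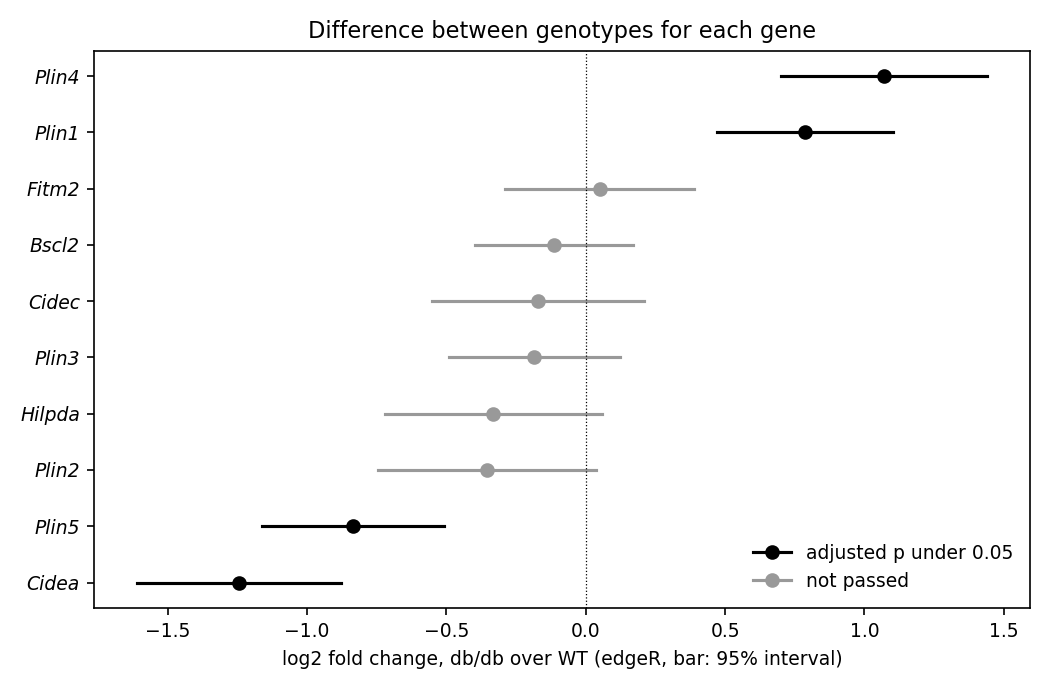
Log2 fold change of each gene, db/db over WT, from edgeR (points) with its 95% interval (bars), in black where the adjusted p was under 0.05. The intervals of Cidea and Plin5 lay below 0, those of Plin1 and Plin4 above 0, and the other 6 spanned 0.

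Of the 3 perilipin ratios tested, that of Plin5 to Plin1 differed most between the genotypes. It was 0.451, 0.528, 0.371 and 0.484 in WT and 0.123, 0.157, 0.149 and 0.164 in db/db, so the lowest WT library had more than the highest db/db library. The geometric mean was 3.09-fold lower in db/db, 0.147 against 0.455 (log2 difference −1.63, exact two-sided permutation p = 0.0286, adjusted 0.0381, n = 4 per genotype). This ratio combines a gene that fell with one that rose. Neither gene overlapped between the genotypes, so their ratio had to separate as well. Its p therefore adds nothing to the calls of Plin5 and Plin1.

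The ratio of Plin2 to Plin1 was 0.917, 0.861, 0.904 and 0.876 in WT and 0.496, 0.385, 0.264 and 0.477 in db/db. The 4 WT libraries lay within a narrow range although the CPM of either gene varied among them, and all db/db libraries were below it. The geometric mean was 0.889 in WT and 0.394 in db/db, a 2.26-fold difference (exact two-sided permutation p = 0.0286, adjusted 0.0381, n = 4 per genotype). Plin2 alone did not pass (log2 fold change −0.35), while Plin1 rose by 0.79, so more of the difference came from Plin1. The perilipin ratios all share Plin1 as the divisor and are not independent of each other.

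The ratio of Plin4 to Plin1 was 0.555, 0.592, 0.785 and 0.507 in WT and 0.865, 0.695, 0.730 and 0.665 in db/db, and the genotypes overlapped because of WT replicate 3. The log2 difference of 0.29 did not pass (exact two-sided permutation p = 0.143, n = 4 per genotype). A difference between the genotypes in the balance of these adipocyte perilipins was therefore not detected at this number of libraries.

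**Figure D3:**
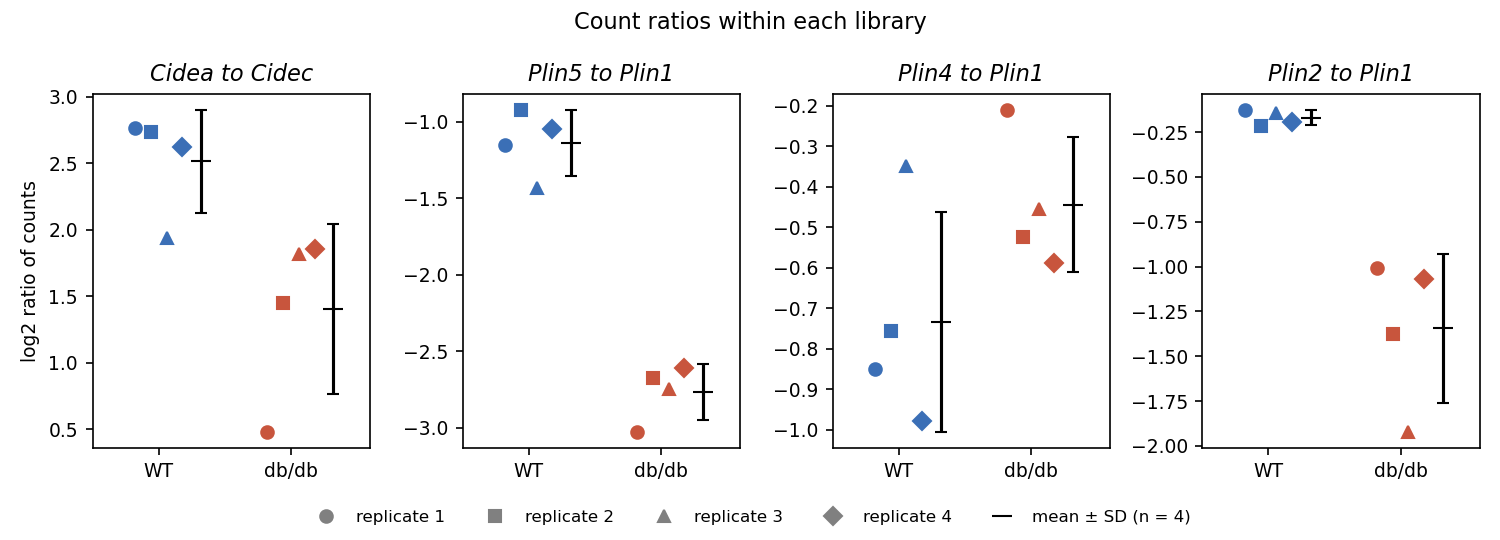
Log2 of the ratio of counts within each library for 4 gene pairs, in WT (blue) and db/db (red), with black bars for the mean ± SD; the axes differ between panels and do not start at 0. The genotypes were apart for Cidea to Cidec, Plin5 to Plin1 and Plin2 to Plin1 and overlapped for Plin4 to Plin1.

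As shares of the summed perilipin counts, Plin1 was 31.6% ± 1.30 in WT and 41.8% ± 2.32 in db/db, and Plin4 was 19.2% ± 3.31 and 30.8% ± 2.74. Plin2 was 28.1% ± 1.56 in WT and 16.8% ± 3.71 in db/db, Plin5 was 14.5% ± 2.18 and 6.21% ± 0.964, and Plin3 was 6.65% ± 2.04 and 4.36% ± 0.726 (SD, n = 4 each). Plin1 and Plin4 together held 48.3% to 54.8% of the perilipin counts in WT libraries and 69.2% to 76.9% in db/db libraries. Shares of 1 total depend on each other, and they were not tested.

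**Figure D4:**
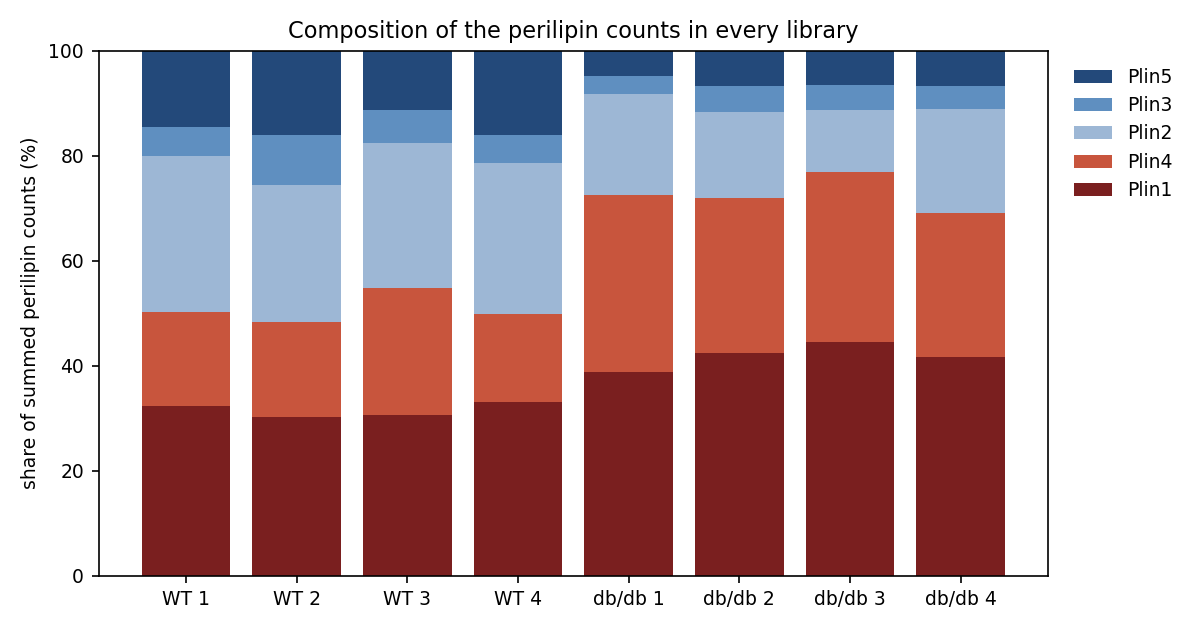
Share (%) of each perilipin gene in the summed counts of the 5 perilipin genes, 1 bar per library. Plin1 and Plin4 (reds) together made up 48.3% to 54.8% of the counts in the WT bars and 69.2% to 76.9% in the db/db bars.

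The members of droplet formation did not pass the test. Bscl2 encodes seipin, which organizes the sites in the endoplasmic reticulum where droplets form and whose loss causes lipodystrophy. It had 150, 131, 179 and 169 CPM in WT and 147, 140, 133 and 160 CPM in db/db, with all 4 db/db libraries inside the WT range. Its log2 fold change of −0.11 (SE 0.13) had an edgeR adjusted p of 0.576. The 95% interval of its ratio was 0.759 to 1.13. Bscl2 shares 6.75% of its exon bases with Gng3 on the opposite strand, which had 0 to 4 counts, and 4.05% with AC129217.1 on the same strand, and how many reads fell on the shared bases was not tested.

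Fitm2, which acts in the endoplasmic reticulum to bud droplets toward the cytosol, had 104, 67.9, 84.9 and 102 CPM in WT and 78.8, 101, 109 and 83.3 CPM in db/db. No direction could be read from it (log2 fold change 0.05, SE 0.16, edgeR adjusted p 0.853), since the sign turned with the scaling and with the library left out: −0.15 when scaled to adipocyte genes, −0.073 without WT replicate 2 and −0.039 without db/db replicate 3. Its ratio of db/db to WT had a 95% interval of 0.819 to 1.31. An antisense gene, 2310001K24Rik, covers 5.72% of its exon bases and had 1 to 11 counts.

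Hilpda, a small inducible inhibitor of Pnpla2 that is a target of hypoxia and PPAR signalling, had 139, 78.5, 77.8 and 126 CPM in WT and 99.3, 77.3, 77.1 and 81.1 CPM in db/db. WT libraries fell into a higher and a lower pair, and 3 db/db libraries lay at the level of the lower pair. The log2 fold change was −0.33 (SE 0.19, edgeR adjusted p 0.201), with a 95% interval of the ratio of 0.606 to 1.04.

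Summed over the 10 genes, the level was 7127 ± 742 CPM in WT and 5001 ± 343 CPM in db/db. Without Cidea it was 2771 ± 489 CPM in WT and 3162 ± 281 CPM in db/db (SD, n = 4), so the lower sum in db/db rested on Cidea. Among libraries of 1 genotype the members did not vary as 1 block. WT replicate 2 was the lowest WT library for 7 of the 10 genes but the highest for Plin3. Db/db replicate 1 was the lowest db/db library for Cidea, Plin3, Plin5 and Fitm2 and the highest for Cidec, Plin2, Plin4 and Hilpda.

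Among 31 other droplet proteins tested of 35 listed, 6 were higher and 4 lower in db/db, and the median log2 fold change was −0.22. Over all genes tested, 15.8% were higher and 11.9% lower, which is the background for this list and the lists below. No list was tested as a set. The genes with the lowest p were the cavins and caveolin that form caveolae and, in adipocytes, also reach the droplet surface. Cavin3 rose from 9.29 to 70.8 CPM (log2 fold change 2.92, edgeR adjusted p 3.61e-07), Cavin1 from 571 to 1531 CPM (1.42, edgeR adjusted p 1.43e-06), Cav1 from 137 to 319 CPM (1.22, edgeR adjusted p 4.15e-06) and Cavin2 from 246 to 571 CPM (1.22, edgeR adjusted p 8.26e-06). Caveolae are also found in endothelial, fibroblast and muscle cells. Of 9 endothelial markers tested 0 rose and 3 fell in db/db, with summed levels of 466 to 525 CPM in WT and 347 to 406 CPM in db/db, while 10 of 10 fibroblast markers and 18 of 20 skeletal muscle markers rose. The part of these cells in the cavin levels was not tested.

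Of 11 genes of droplet lipolysis tested of 12 listed, 2 were higher and 4 lower, with a median of −0.18. Mgll, the monoglyceride lipase, rose by 0.73 on the log2 scale (edgeR adjusted p 0.000904). Abhd5, the coactivator that Plin1 holds and that Plin5 brings to Pnpla2, fell from 89.8 to 52.8 CPM (log2 fold change −0.76, edgeR adjusted p 0.00495), Prkacb, a catalytic subunit of protein kinase A, fell from 61.8 to 37.6 CPM (edgeR adjusted p 0.00258), and the carboxylesterase Ces1d fell from 390.3 to 211 CPM (edgeR adjusted p 0.00705). Pnpla2, the first lipase of the pathway, had a log2 fold change of −0.18 (SE 0.16, edgeR adjusted p 0.447) and was named after its values were seen.

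Of 10 triglyceride synthesis genes tested of 14 listed, 0 were higher and 5 lower, with a median of −0.64. Lpin1, a phosphatidate phosphatase, fell from 312 to 172 CPM (log2 fold change −0.86, edgeR adjusted p 0.00193). Dgat2, which makes triglyceride at the droplet surface, fell by 0.62 on the log2 scale (edgeR adjusted p 0.00402), Dgat1 by 0.66 (edgeR adjusted p 0.00497) and Agpat2, an acyltransferase whose loss causes lipodystrophy as that of Bscl2 does, by 0.92 (edgeR adjusted p 0.00604).

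Of 13 transcription factors and coactivators known to act on droplet genes, 0 were higher and 4 lower, with a median of −0.46. That number of calls is near the 27.7% of all genes tested that were called in either direction. Ppargc1b fell from 85.0 to 37.5 CPM (log2 fold change −1.19, edgeR adjusted p 0.000491), Ppara, the nuclear receptor of fatty acid oxidation, from 94.1 to 34.6 CPM (−1.46, edgeR adjusted p 0.00165), Esrra by 0.80 on the log2 scale (edgeR adjusted p 0.00491) and Ppargc1a by 0.79 (edgeR adjusted p 0.0158). Pparg, the adipocyte receptor through which Plin1, Plin4 and Cidec are switched on, had a log2 fold change of −0.39 (SE 0.29, edgeR adjusted p 0.341) and was named after its values were seen. In the hypoxia list, to which Hilpda belongs by its regulation, 3 of 11 genes tested of 13 listed were higher and 5 lower, with a median of −0.55. Ndrg1 rose by 1.36 and Adm by 2.35 on the log2 scale, while Bnip3 fell by 0.97 and Vegfa by 1.03, and all 4 passed (edgeR adjusted p 2.54e-05, 7.86e-05, 3.15e-05 and 0.000715 in that order).

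Markers of adipocyte types and of other cells also moved with the genotype. Of 9 white adipocyte markers tested of 12, 5 were higher in db/db, with summed levels of 124.5 to 378 CPM in WT and 1934 to 2975 CPM in db/db, while Hoxc10 and Wt1 were at 0 in all libraries. Of 9 brown adipocyte markers tested of 12, 0 were higher and 6 lower, with sums of 5037 to 6026 CPM and 2584 to 4545 CPM. Of 14 macrophage markers tested of 15, 12 were higher (sums 169 to 231 CPM in WT and 821 to 1445 CPM in db/db), and of 10 fibroblast markers all 10 were higher (669 to 816 CPM and 1339 to 2894 CPM). The part of macrophages and fibroblasts in the levels of the droplet genes was not tested. Bulk tissue cannot show whether the brown and white adipocyte markers changed within the same cells.

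Skeletal muscle markers were higher in db/db for 18 of 20 genes, with sums of 526 to 1925 CPM in WT and 2505 to 12840 CPM in db/db, none of them at 0 throughout, and db/db replicate 1 was the highest. With the muscle score, the mean z-score of these 20 genes, as a covariate, Cidea (log2 fold change −0.90, edgeR adjusted p 0.0209) and Plin5 (−0.87, edgeR adjusted p 0.0204) still passed. Plin1 and Plin4 kept their direction but, as given above, did not pass. The score itself overlapped between the genotypes only through db/db replicate 4 at −0.107, below WT replicate 4 at −0.021. In the other libraries it was −1.33 to −0.54 in WT and 0.33 to 1.62 in db/db, so it largely followed genotype. With it in the fit the SE rose from 0.15 to 0.23 for Plin1 and from 0.18 to 0.26 for Plin4. The lost calls thus reflect lower precision as well as smaller estimates. Over all genes this fit called 813 in place of 2568. Without db/db replicate 1 and with no covariate, all 4 genes passed.

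**Figure D5:**
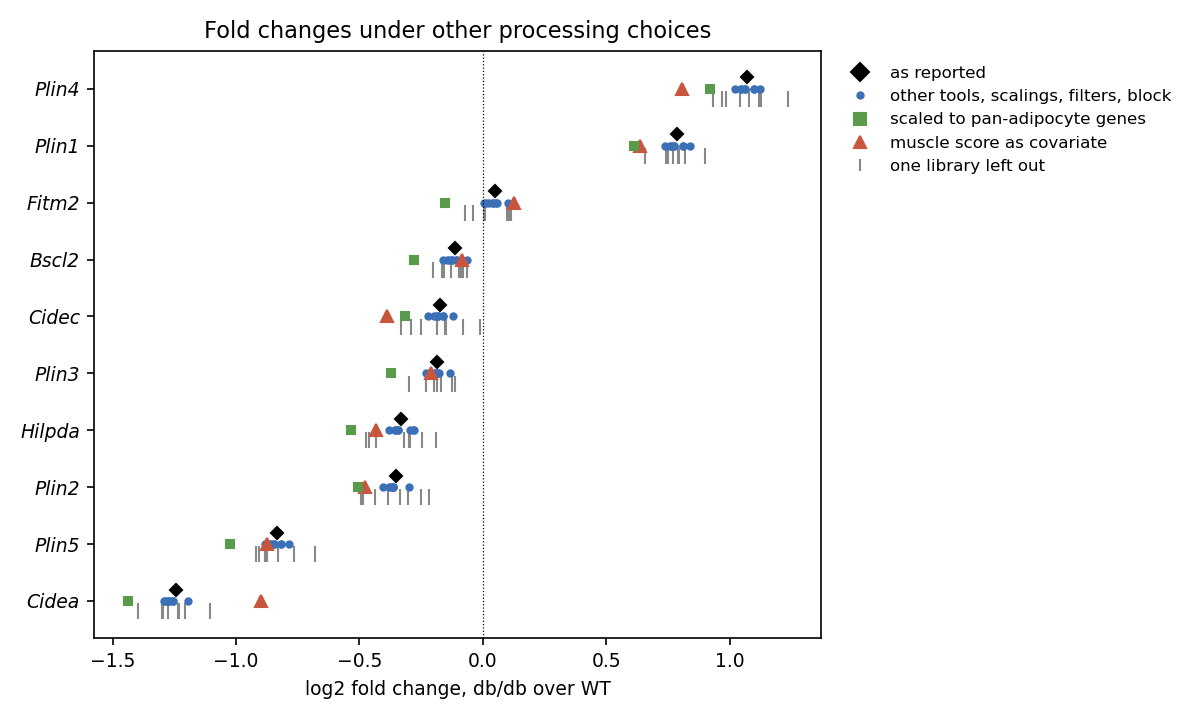
Log2 fold change of each gene, db/db over WT, as reported (black diamonds), under other tools, scalings, filters and the replicate block (blue), scaled to adipocyte genes (green), with the muscle score as a covariate (red) and with each library left out in turn (grey ticks). Only Fitm2 crossed 0, and the direction of the other 9 genes held under each alternative shown.

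The genes most alike to a member were found by Pearson's r of log2 CPM over the 8 libraries. They were sought among 2149 genes with a mean of at least 50 CPM over all libraries. Of those named below, Tacc2 averaged 33.1 CPM in WT, and Rhot1 46.5 and Dap3 43.1 CPM in db/db. These passed only through the other genotype. All points share the libraries and the split by genotype, so r of the deviations from the genotype means is given beside it, and neither has a test. Cidea was most like Npc1, the lysosomal cholesterol transporter (r 0.99, deviations 0.96), Cox6a1, a subunit of cytochrome c oxidase (0.99 and 0.94), and Kcmf1 (0.99 and 0.97). Plin5 was most like 3 genes of mitochondrial proteins, Dap3 of the mitochondrial ribosome (0.98 and 0.93), Vdac2 of the outer membrane (0.98 and 0.90) and Rhot1 of mitochondrial transport (0.97 and 0.90).

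Plin1 was most like Fopnl (0.99 and 0.94), the translation factor Eif4g2 (0.98 and 0.93) and Tacc2 (0.97 and 0.82). Plin4 was most like Cd63, a tetraspanin of endosomes (0.98 and 0.92), Gsn, the actin-severing gelsolin (0.98 and 0.89), and Enpp2, which makes lysophosphatidic acid (0.97 and 0.88). Cidec, which had no call between genotypes, was most like the lysosomal protease Ctsz (0.93 and 0.93), Eif3i (0.90 and 0.92) and Nek7 (0.89 and 0.89).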

How the data were processed

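RNA of BAT was sequenced as single-end digital mRNA libraries. Per the study's methods, the authors trimmed reads with bbduk, aligned them to mm10 with STAR 2.6.0a and used HTSeq-count 0.9.1 to count reads of each Ensembl gene, whereas the labels' processing notes name Trimmomatic, HISAT2 and DESeq2. The strand setting, the use of molecular identifiers and the annotation release are not given in the sources used here. The deposited counts are raw whole numbers per gene. The authors also deposited log2 values, which are the log2 of 1 plus the count scaled by a constant of each library, and these were used only for that check. 30934 of 31053 identifiers matched GENCODE M21.

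The counts of all genes were fitted with edgeR 4.0.16 (R 4.3.3): filterByExpr with a minimum count of 10 and total of 15, TMM scaling, quasi-likelihood F test of genotype, Benjamini-Hochberg over 9264 genes, threshold 0.05, 95% intervals from the fit. CPM are TMM-scaled. Ratios were taken per library with 0.5 added to each count and tested by exact permutation, two-sided, over 70 splits. Alternatives were DESeq2 1.42.0, limma-voom 3.58.1, other scalings and filters, a muscle covariate, the replicate number as a block and each library left out. The fit was tested on simulated data. Limits of a count of 0 cover counting error only. Named genes were all 10 members, of each other list up to 4 with the lowest p, and for 5 members the 3 genes most alike in level. Outside this rule, Cideb, Pnpla2 and Pparg were named after their values were seen, as were markers at 0 in all libraries and genes that overlap a member. The members and lists were chosen with earlier results of these data known. The replicate pairs of each genotype differed by more than sampling noise, and none was counted as 1 sample.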

Additional observations from a re-analysis of the deposited data

How the results depend on the processing

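The 4 calls among the 10 genes held under each of the 10 alternatives except the muscle covariate, under which 813 genes were called in place of 2568 and 0 members were higher, with Plin1 at 0.64 and Plin4 at 0.81. Plin2 passed when every gene with at least 1 count was tested (−0.40), with 3170 genes called. Fitm2 changed sign when scaled to adipocyte genes (−0.15), without WT replicate 2 (−0.073) and without db/db replicate 3 (−0.039), and ran from −0.073 to 0.116 over the 8 libraries left out. With 1 library left out, 2236 to 2483 genes were called, members called were 2 higher and 2 lower each time, and the log2 ratio difference ran from −1.31 to −0.81 for Cidea to Cidec, from −1.72 to −1.54 for Plin5 to Plin1, from −1.29 to −0.98 for Plin2 to Plin1 and from 0.21 to 0.42 for Plin4 to Plin1. The causes were not tested.

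Replicate numbers do not pair the libraries, since same-numbered WT and db/db libraries had correlations of 0.0383, 0.049, −0.0781 and −0.0137 in their deviations. With the replicate block 2557 genes were called, with 2 members in each direction, and the sign-flip p of each ratio could not go below 0.125 with 4 pairs. Cidec stayed uncalled in all alternatives, with a log2 fold change of −0.39 to −0.12 over the 10 settings and of −0.33 to −0.01 with 1 library left out (−0.01 without WT replicate 3). Genes at a few CPM, such as Cideb, lie close to the limit that a count of 0 allows.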
